A study of Mus musculus with 6 samples.

Results

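Genes of the growth hormone and IGF axis were followed across fasted and fed mouse liver: the growth hormone receptor Ghr, its signal carriers Stat5a and Stat5b, the feedback inhibitors Socs2 and Cish, the hormone Igf1, and its plasma partners Igfals, Igfbp1, Igfbp2 and Igfbp4. They were chosen by name, with earlier results of these data known, and 10 of 10 were measured, among 18193 genes in all. Together they had 27 of the 34945 probe sets whose annotation named a single gene. Each gene is represented by its brightest probe set over the 6 arrays, and the other probe sets are given beside it.

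Liver RNA from 8-week-old male C57BL/6J mice was hybridised to 6 Affymetrix arrays, 2 for each of 3 groups. The first group carried the Cnot3+/- genotype and was fasted for 24 h, the second was wild-type and fasted for 24 h, and the third was wild-type and fed normal chow. Mice fed or fasted were of the same strain, sex and age, and no fed Cnot3+/- group is among these arrays. Cnot3 codes for part of CCR4-NOT, the enzyme complex that shortens mRNA poly(A) tails. The missing stretch of Cnot3 is not given in the labels.

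Growth hormone from the pituitary binds its receptor on hepatocytes, where the kinase JAK2 activates STAT5A and STAT5B. These factors switch on Igf1, Igfals and the feedback inhibitors Socs2 and Cish. In plasma most IGF1 travels in a complex of an IGF binding protein and the acid-labile subunit encoded by Igfals, while IGFBP1, IGFBP2 and IGFBP4 bind IGF1 without that subunit. In male rodents growth hormone is released in pulses, and fasting is known to lower hepatic Igf1 and raise hepatic Igfbp1, a gene that insulin represses through FoxO factors.

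Values are RMA expression levels on a log2 scale, and the array medians lay between 5.59 and 5.64. A level under the median was not taken as above background. Cnot3 read 9.40 and 9.16 on the Cnot3+/- arrays and 9.27 and 9.32 on the wild-type fasted arrays (log2 difference -0.015, SE 0.13, adjusted p = 0.993). The level of Cnot3 did not set the genotypes apart, a probe set outside the missing stretch would check nothing, and the genotype is given as labelled. The 6 measured hepatocyte markers averaged between 14.41 and 14.61 on every array. In bulk liver, fewer cells of a type and less RNA per cell cannot be told apart. A gene is said to rise or fall where limma's Benjamini-Hochberg adjusted p over all 18193 genes was under 0.05. Same-group arrays are labelled as biological replicates, and having only 2 of them limits every value below.

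In fasted wild-type liver Ghr and Cish fell and Igfbp2 rose, against fed wild-type liver, while the other 7 genes did not pass the test. In all genes the same test called 5.02% (3.15% lower and 1.87% higher). Since the 10 genes were chosen with earlier results known, that share is given as background and is no test of the set. The groups did not overlap for 7 of the 10 genes, a state that 50.8% of all genes showed. The median difference was -0.23 over the 10 genes and 0.024 over all genes. None of the 3 calls held on every set of arrays, since without either fasted wild-type array 0 of the 10 genes passed.

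**Figure D1:**
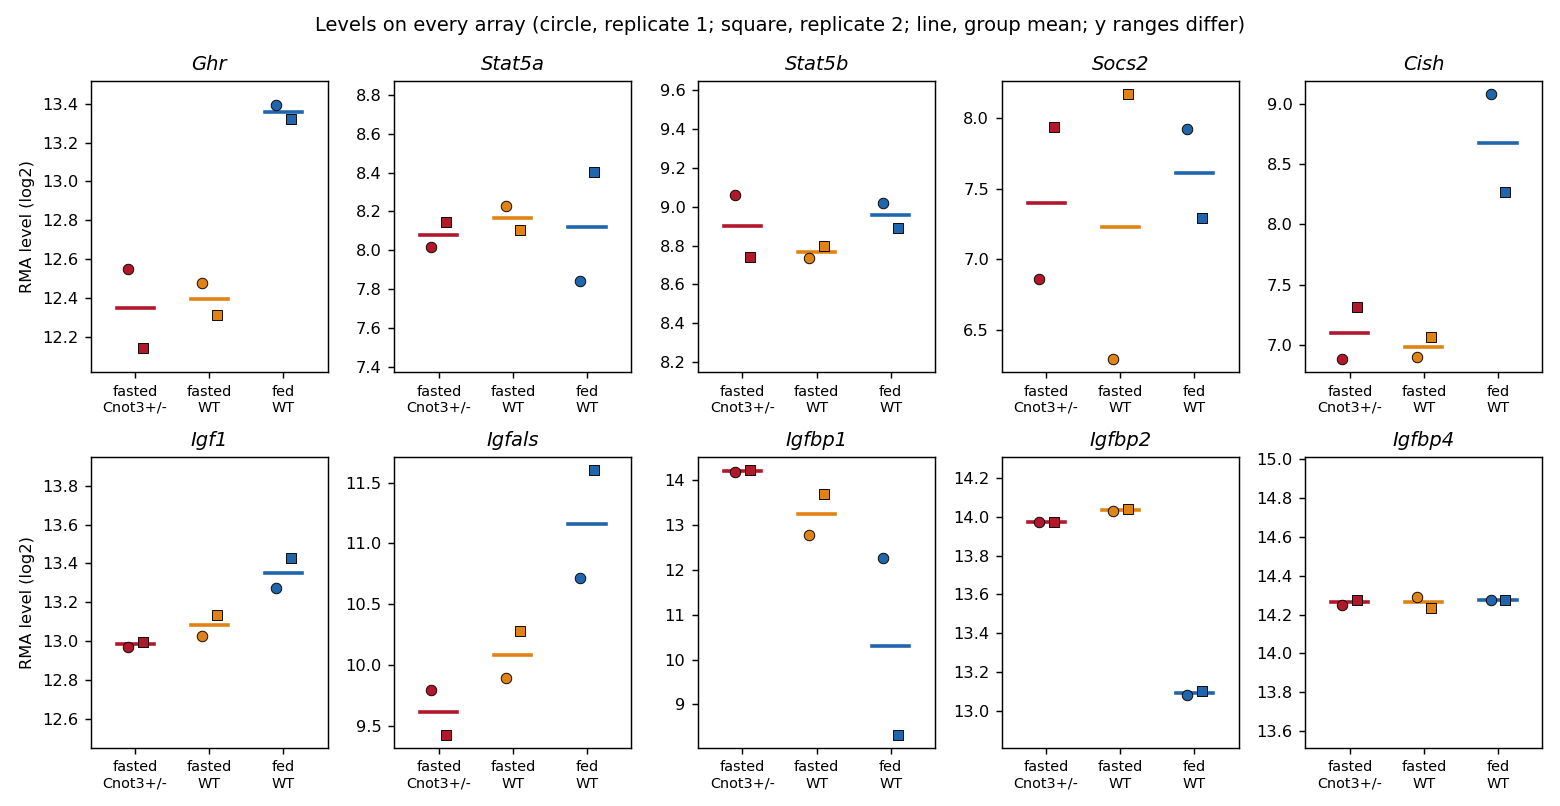
Level of each gene (RMA, log2) on the 2 arrays of the fasted Cnot3+/-, fasted wild-type and fed wild-type groups; circles are replicate 1, squares replicate 2, lines the group mean, and each panel has its own y range. The fasted arrays lie apart from the fed arrays for Ghr, Cish, Igf1, Igfals, Igfbp1 and Igfbp2. The fed arrays lie far from each other for Igfbp1, and the fasted arrays spread widely for Socs2.

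Ghr, the receptor through which growth hormone acts on hepatocytes, was lower on every fasted array. Its brightest probe set read 12.55 and 12.14 on the fasted Cnot3+/- arrays, 12.48 and 12.31 on the wild-type fasted arrays, and 13.39 and 13.32 on the fed arrays. The fasted wild-type mean was 12.39 ± 0.12 and the fed mean 13.36 ± 0.05 (SD, n = 2 arrays each). Ghr thus stood at 0.513 of its fed level in fasted wild-type liver (log2 difference -0.96, SE 0.16, adjusted p = 0.021), with a 95% interval from 0.395 to 0.666. The other probe sets of Ghr gave smaller differences with the same sign. One read 12.12 and 12.08 in fasted wild-type and 12.58 and 12.48 in fed liver (log2 difference -0.43, adjusted p = 0.204 with every probe set tested). The dimmest read 10.41 and 10.79 in fasted wild-type and 11.55 and 11.20 in fed liver (-0.77, adjusted p = 0.145). The brightest Ghr probe set has the suffix _s_at and the other Ghr probe sets have the suffix _a_at, and both types can match several transcripts. With _x_at and _s_at probe sets left out the Ghr call was lost (-0.43, adjusted p = 0.161). The call was also lost when any one of the 4 fasted wild-type and fed arrays was left out, with differences between -1.05 and -0.88 and adjusted p values between 0.0892 and 0.136.

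Stat5a and Stat5b, which carry the growth hormone signal to the nucleus, did not pass the test on fasting. Stat5b read 9.06 and 8.74 on the fasted Cnot3+/- arrays, 8.74 and 8.80 on the wild-type fasted arrays, and 9.02 and 8.89 on the fed arrays. The fasted wild-type and fed arrays did not overlap. The fasting difference of Stat5b was -0.19 (SE 0.14, interval -0.52 to 0.15), while that of its dimmer probe set was 0.28, so no direction can be given. Stat5a read 8.01 and 8.14 on the fasted Cnot3+/- arrays, 8.23 and 8.10 on the wild-type fasted arrays, and 7.84 and 8.40 on the fed arrays, where the groups overlapped. Its fasting difference was 0.044 (interval -0.40 to 0.49).

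Cish, a STAT5-induced inhibitor of cytokine receptor signalling, had the largest fall among the 10 genes. It read 6.89 and 7.31 on the fasted Cnot3+/- arrays, 6.90 and 7.07 on the wild-type fasted arrays, and 9.08 and 8.27 on the fed arrays. All 4 fasted arrays lie close together and below both fed arrays. In fasted wild-type liver Cish stood at 0.311 of its fed level (log2 difference -1.69, SE 0.27, adjusted p = 0.0185), with an interval from 0.201 to 0.482. With fed replicate 2 left out the difference was -2.09, and with fed replicate 1 left out it was -1.28. Either fit keeps 1 fed array and so holds no spread between fed arrays, and no pass is read from these fits. Without fasted wild-type replicate 1 the adjusted p was 0.133 and without replicate 2 it was 0.0913. A single probe set named Cish.

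Socs2, the other STAT5-induced inhibitor, varied widely between the arrays of a group. Its brightest probe set read 6.86 and 7.94 on the fasted Cnot3+/- arrays, 6.30 and 8.17 on the wild-type fasted arrays, and 7.92 and 7.29 on the fed arrays. The groups overlapped, since each fasted group had an array above both fed arrays and an array below them. The gap between the fasted wild-type arrays, 1.87, was the 13th largest among 18193 genes, and the gap of 1.07 between the Cnot3+/- arrays was the 120th largest. The next probe set of Socs2 showed the same spread, at 5.44 and 6.49 in fasted Cnot3+/-, 4.92 and 7.10 in fasted wild-type, and 6.99 and 6.70 in fed liver. The other 4 of its 6 probe sets lay at or under the array median on all 6 arrays. The fasting difference of Socs2 was -0.38 with an interval from -1.79 to 1.03, and it ran from -1.31 to 0.56 as single arrays were left out, so no direction can be given.

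In both fasted groups the array numbered 2 had the higher Socs2. Over all genes, the deviations of same-numbered arrays from their group means correlated at r = 0.45 between the fasted groups, at 0.045 between the fasted and fed wild-type groups, and at -0.0093 between the Cnot3+/- and fed groups (over genes, which are no independent replicates). The labels state no pairing of animals. Of 17 male-biased liver genes that depend on growth hormone, 16 were higher on the first than on the second fasted wild-type array, with a median gap of 0.19. On the Cnot3+/- arrays 14 of the 17 were higher on the first, with a median gap of 0.22. The matching share and median gap of all genes are not given here for the fasted arrays. These counts therefore have no background and are not read as a growth hormone pattern. In both fasted groups the first array also had the slightly higher array median. Most of the 17 genes moved opposite to Socs2 between the arrays of a fasted group. Serpina12 moved with Socs2 (first minus second, -0.94 in wild-type and -1.37 in Cnot3+/- liver). In fasted wild-type liver the direction was not particular to this list. Of 10 insulin-induced genes, 7 were higher on the first fasted wild-type array (median gap 0.26) and 5 on the first Cnot3+/- array (0.016). What sets the arrays apart was not tested.

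The start regions of these genes hold some of the letters that STAT5 dimers are known to bind. In RefSeq sequence of build GRCm38.p6, 9 of the 10 genes matched, with 15 windows of 250 bases before to 50 bases after an annotated start. Socs2 had no window, so its start region was not searched. The motif TTCNNNGAA, which reads the same on both strands, was found in 3 of these windows, those of Cish and of Igfals, and in 8.30% of all 32851 windows. The stretch of Cish holds it 2 times, at bases 1 to 9 and 12 to 20 counted from the annotated start. Igfals holds it at -236 to -228 from the first and at -58 to -50 from the second of its annotated starts, and the window of the third does not hold it. These stretches are shown because Cish and Igfals had the largest negative differences on fasting; all lie on the plus strand, and capitals mark the motif.
Cish, chr9:107296655-107296682: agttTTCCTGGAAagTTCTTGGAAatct
Igfals, first start, chr17:24877598-24877627: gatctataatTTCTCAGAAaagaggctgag
Igfals, second start, chr17:24878163-24878192: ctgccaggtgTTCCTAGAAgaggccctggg
A match is a description of the letters and no evidence that the factor was bound in these livers.

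Igf1, the circulating growth factor made mainly by hepatocytes, differed little on fasting. It read 12.97 and 13.00 on the fasted Cnot3+/- arrays, 13.03 and 13.13 on the wild-type fasted arrays, and 13.27 and 13.43 on the fed arrays. All 4 fasted arrays lie below both fed arrays on this probe set. The fasting difference was -0.27 (SE 0.12, adjusted p = 0.287), which is 0.829 of the fed level with an interval from 0.681 to 1.01. The 3 other probe sets of Igf1 gave differences of -0.19, -0.041 and 0.039, with overlapping groups in each. A fall of Igf1 below 0.681 of its fed level therefore lies outside the interval of the brightest probe set. Saturation of bright probe sets cannot be judged from these values.

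Igfals, which encodes the acid-labile subunit that holds IGF1 in plasma, read 9.79 and 9.43 on the fasted Cnot3+/- arrays, 9.89 and 10.28 on the wild-type fasted arrays, and 10.71 and 11.60 on the fed arrays. Every fasted array lies below both fed arrays, and the fed arrays lie 0.89 apart. The fasting difference was -1.07 (SE 0.29, interval -1.76 to -0.39), which did not pass over all genes (adjusted p = 0.0923). Dropping fed replicate 1 moved the difference to -1.52, and dropping fed replicate 2 moved it to -0.63. Either fit keeps 1 fed array and so holds no spread between fed arrays, and no pass is read from it.

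Igfbp2, an IGF binding protein secreted by hepatocytes, had the steadiest rise. It read 13.97 on both fasted Cnot3+/- arrays, 14.03 and 14.04 on the wild-type fasted arrays, and 13.08 and 13.10 on the fed arrays. Within each group the arrays lie far closer to each other than to the fed or fasted arrays across from them. Igfbp2 was 1.92-fold higher in fasted wild-type than in fed liver (log2 difference 0.94, SE 0.11, adjusted p = 0.00625), with an interval from 1.61 to 2.30. Left-out arrays moved the difference only between 0.93 and 0.95. Igfbp2 missed the threshold without fasted wild-type replicate 1 and without replicate 2. The fits without a fed array keep 1 fed array, and no pass is read from them.

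Igfbp1, a binding protein whose transcription insulin switches off, read 14.17 and 14.22 on the fasted Cnot3+/- arrays, 12.78 and 13.70 on the wild-type fasted arrays, and 12.26 and 8.33 on the fed arrays. The gap of 3.92 between the fed arrays was the largest of all 18193 genes. Fed replicate 1 lies a little below the lower fasted wild-type array, and fed replicate 2 lies far below every other array. The fasting difference was 2.94 (SE 1.06, adjusted p = 0.189), a 7.70-fold ratio with an interval from 1.36 to 43.6. Dropping fed replicate 1 moved the difference to 4.91, and dropping fed replicate 2 moved it to 0.98. Either fit keeps 1 fed array, so the gap of 3.92 no longer enters the error (SE 0.35, against 1.06 with both). No pass is read from these fits.

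The start region of Igfbp1 holds the paired element, known from rat and human IGFBP1, through which insulin represses the gene. The letters searched were CAAAACA and CAAAATA, on both strands. Of the 15 windows, Igfbp1 alone held CAAAACA, at -108 to -102 from the start, and Igfbp1 alone held CAAAATA, read on the minus strand at -97 to -91. Of all windows 6.28% held the first and 4.36% the second. The 150 bases before the start are shown because Igfbp1 had the widest range of the 10 genes; the strand is plus and capitals mark both motifs.
Igfbp1, chr11:7197637-7197786: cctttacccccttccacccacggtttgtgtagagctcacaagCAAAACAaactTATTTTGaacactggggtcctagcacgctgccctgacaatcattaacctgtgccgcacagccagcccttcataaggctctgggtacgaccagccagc
The letters found say nothing of whether FoxO factors were bound in these livers.

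Other genes that insulin represses also differed between the fed arrays. Of 14 such genes, 11 were higher on fed replicate 1, with a median gap of 0.29, against -0.01 over all genes. The genes named next were picked after their values were seen. Ppp1r3g, a glycogen-targeting subunit of protein phosphatase 1, read 9.02 and 6.04 on the fed arrays. Pck1, the rate-limiting enzyme of gluconeogenesis, read 13.93 and 11.74. Ppargc1a, a coactivator of fasting genes, read 8.27 and 6.70. These gaps ranked 5th for Ppp1r3g, 8th for Pck1 and 42nd for Ppargc1a among all genes. Pdk4, on the same list, went the other way, at 6.51 and 8.08. Ppp1r3g also lay far apart within the fasted groups, at 6.13 and 8.12 on the wild-type fasted arrays and 11.23 and 9.16 on the Cnot3+/- arrays. Of 10 insulin-induced genes, 4 were higher on fed replicate 1, with a median gap of -0.28. Srebf1, the driver of fat synthesis genes, read 8.46 and 8.74 on the wild-type fasted arrays, against 13.03 on fed replicate 1 and 13.51 on fed replicate 2. So on fed replicate 1 Igfbp1 lay closer to the fasted arrays than to the other fed array, while Srebf1 lay close to the other fed array. The labels give no time since the last meal, and the part of feeding state in this gap was not tested.

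**Figure D2:**
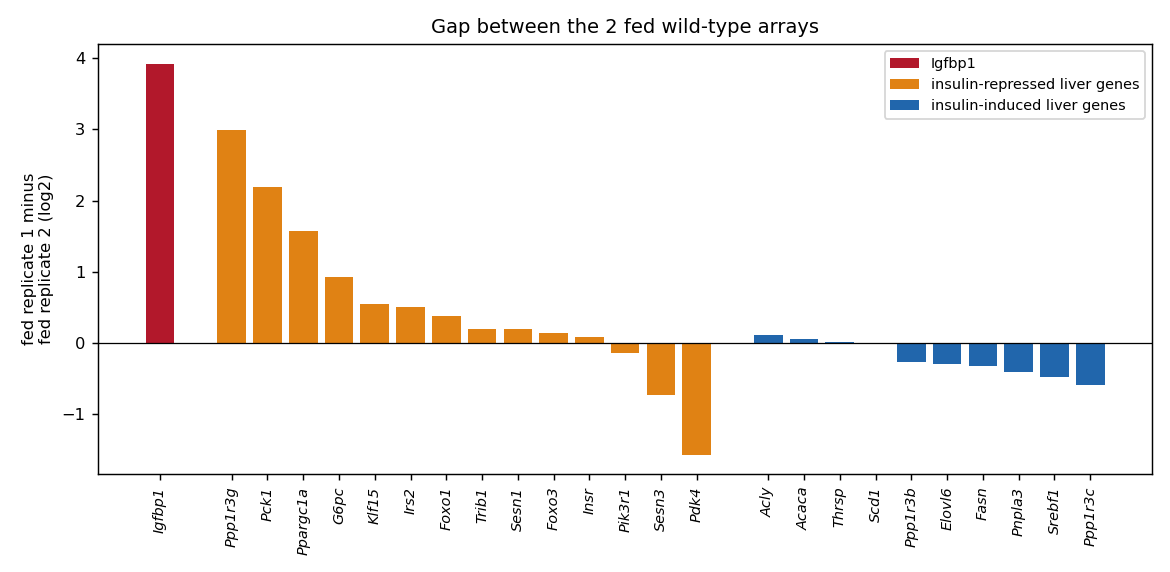
Log2 level on fed wild-type replicate 1 minus fed wild-type replicate 2 for Igfbp1 and for the insulin-repressed and insulin-induced gene lists; bars start at 0 and have no error, since each is a difference of 2 arrays. Igfbp1 has the tallest bar, at 3.92, 11 of 14 insulin-repressed genes lie above 0, and 4 of 10 insulin-induced genes do.

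Igfbp4, a binding protein of broad expression, did not differ detectably. It read 14.25 and 14.28 on the fasted Cnot3+/- arrays, 14.29 and 14.24 on the wild-type fasted arrays, and 14.28 on both fed arrays. The fasting difference of this probe set was -0.014, with an interval from -0.28 to 0.25. The sign of that difference was positive after centring on brighter genes and with the mean over probe sets. Its 6 probe sets gave differences from -0.014 to 0.33, and the 0.33 of the dimmest probe set had an interval from -0.19 to 0.85.

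**Figure D3:**
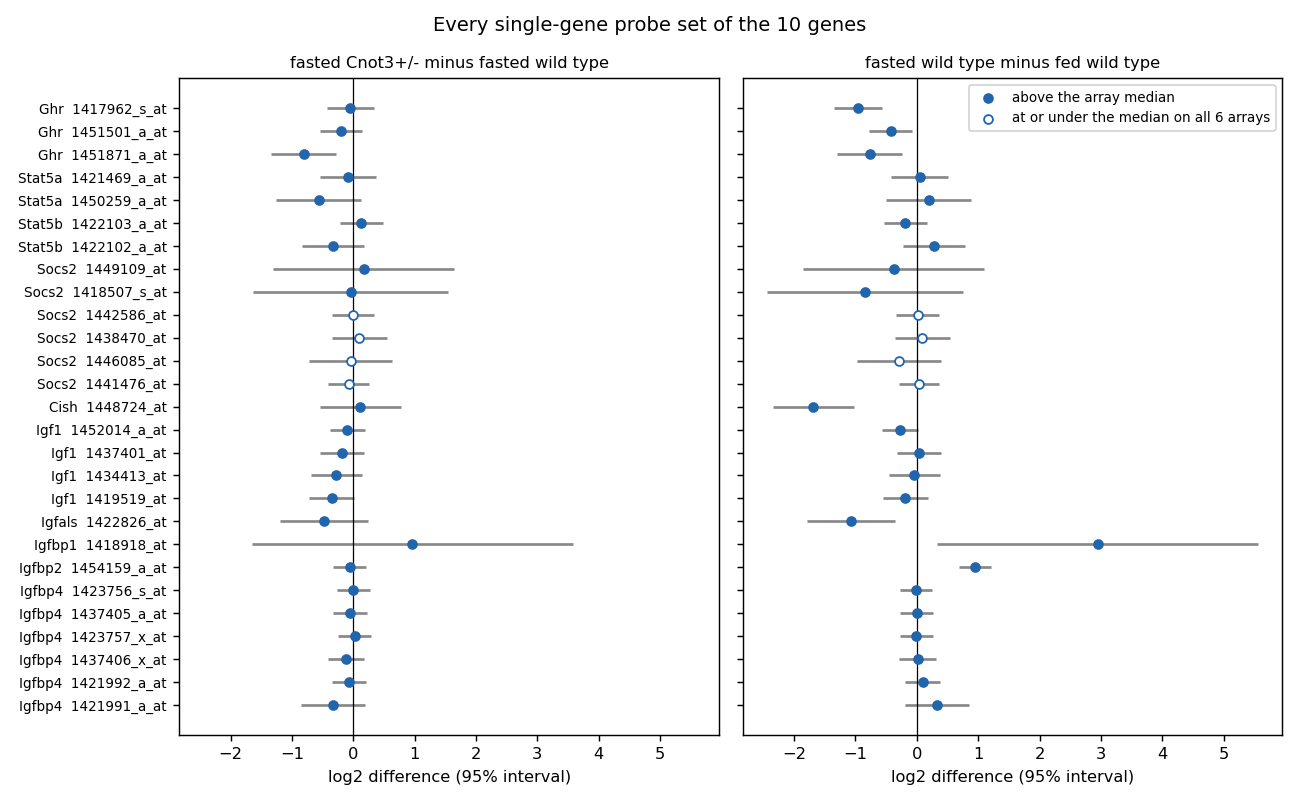
Log2 difference and 95% interval for each of the 27 probe sets, for fasted Cnot3+/- minus fasted wild-type (left) and fasted wild-type minus fed wild-type (right); open circles are the 4 probe sets of Socs2 at or under the array median on all 6 arrays. All 3 probe sets of Ghr lie left of 0 on fasting, between -0.96 and -0.43, and the 4 of Igf1 lie between -0.27 and 0.039.

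Between the fasted genotypes none of the 10 genes passed the test, and none of all 18193 did (0%). At an unadjusted p under 0.05 there were 0 of the 10 genes and 1011 of all genes. The adjusted p values of the 10 genes ran from 0.865 to 0.999. Their median difference was -0.024 and that of all genes -0.0017. The groups did not overlap for 4 of the 10 genes, Igf1, Igfals, Igfbp1 and Igfbp2, against 36% of all genes.

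Igfbp1 was the highest of its 6 readings on the Cnot3+/- arrays, at 14.17 and 14.22, against 12.78 and 13.70 on the wild-type fasted arrays. The log2 difference was 0.96, with an interval from -1.54 to 3.46 (SE 1.06, adjusted p = 0.917). That error includes the gap between the fed arrays; in a fit of the 4 fasted arrays alone the SE was 0.29 and the adjusted p 0.872. The Igfbp1 difference was 0.50 with wild-type fasted replicate 1 left out and 1.42 with replicate 2 left out, and it did not pass in either case. Igfals differed by -0.47 (SE 0.29, interval -1.16 to 0.22), with 9.79 and 9.43 in fasted Cnot3+/- and 9.89 and 10.28 in fasted wild-type liver. Without fasted wild-type replicate 2 the Igfals difference was -0.28, and without Cnot3+/- replicate 2 it was -0.29.

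Igf1 differed by -0.096 (interval -0.38 to 0.19) on its brightest probe set. The other probe sets of Igf1 gave -0.35, -0.28 and -0.18, so all 4 were lower on the Cnot3+/- arrays and none passed. These probe sets read the same mRNA in the same animals and are not separate evidence. On the dimmest of them Igf1 read 11.65 and 11.73 in fasted Cnot3+/- and 11.93 and 12.15 in fasted wild-type liver (adjusted p = 0.814).

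Ghr differed by -0.048 between the fasted genotypes on its brightest probe set, with an interval from -0.42 to 0.33 and overlapping groups. Its dimmest probe set gave another picture, at 9.54 and 10.03 on the Cnot3+/- arrays and 10.41 and 10.79 on the wild-type fasted arrays. That difference of -0.81 (SE 0.22, adjusted p = 0.814 with every probe set tested) did not pass, and the middle probe set gave -0.20. Which Ghr transcripts each probe set reads was not analysed here.

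The remaining genes differed little between the fasted genotypes on their brightest probe sets. Cish differed by 0.11 (interval -0.52 to 0.74), Socs2 by 0.17 (-1.24 to 1.58), Stat5a by -0.087 (-0.53 to 0.36) and Stat5b by 0.13 (-0.21 to 0.47). For Igfbp4 the difference was 0.00043 (-0.26 to 0.26), and for Igfbp2 it was -0.062 (-0.32 to 0.20), although both Cnot3+/- arrays lay below both wild-type arrays for Igfbp2. On the brightest probe sets the intervals exclude a 2-fold difference for Ghr, Stat5a, Stat5b, Cish, Igf1, Igfbp2 and Igfbp4, but not for Socs2, Igfals or Igfbp1. Other probe sets do not all give that bound, since the interval of the dimmest Ghr probe set reached -1.34 and that of the dimmer Stat5a probe set ran from -1.26 to 0.12.

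**Figure D4:**
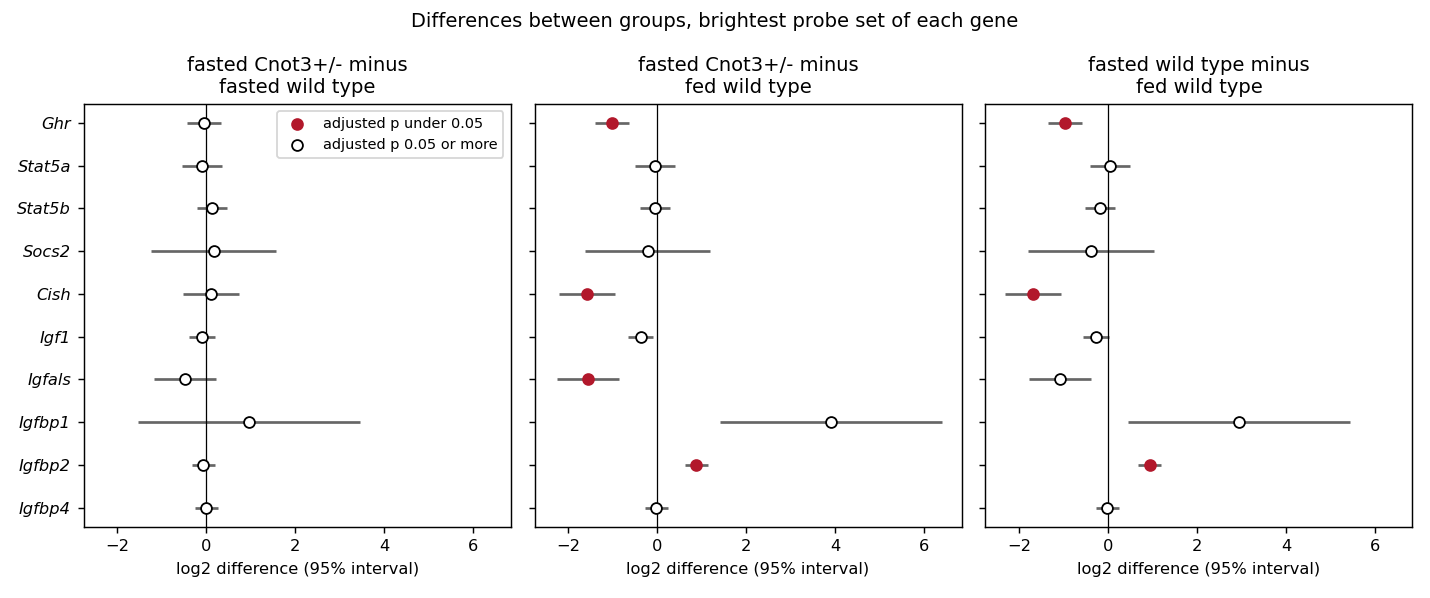
Log2 difference with its 95% interval for each gene's brightest probe set, for fasted Cnot3+/- minus fasted wild-type, fasted Cnot3+/- minus fed wild-type and fasted wild-type minus fed wild-type; filled points passed the test. The first panel has 0 filled points, the second 4 and the third 3, and the widest intervals are those of Igfbp1 and Socs2.

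Against fed wild-type liver, the fasted Cnot3+/- arrays gave 4 calls among the 10 genes: Ghr, Cish and Igfals fell and Igfbp2 rose. Of all genes 7.56% passed (3.68% lower and 3.88% higher). The groups did not overlap for 7 of the 10 genes, against 48% of all genes. This comparison uses the same fed arrays as that of fasted wild-type liver, so the results are not independent. Ghr differed by -1.01 in fasted Cnot3+/- and by -0.96 in fasted wild-type liver, each against fed liver. Cish gave -1.57 and -1.69 in the same order, Igfbp2 0.88 and 0.94, Igfals -1.55 and -1.07, Igf1 -0.37 and -0.27, and Igfbp1 3.90 and 2.94. The adjusted p values against fed liver in fasted Cnot3+/- were 0.0131 for Ghr, 0.0173 for Cish, 0.0244 for Igfals, 0.0059 for Igfbp2, 0.132 for Igf1 and 0.0758 for Igfbp1. Igfals passed here and not in fasted wild-type liver, but the difference between those 2 effects is the genotype comparison, which did not pass. Ghr was lost without either fed array (adjusted p = 0.0639 and 0.0587), Igfals without fed replicate 2 (0.0656) or Cnot3+/- replicate 2 (0.105), and Cish without Cnot3+/- replicate 1 (0.0668). Dropping fed replicate 1 moved the Igfbp1 difference to 5.87, and dropping fed replicate 2 moved it to 1.94. Neither fit holds the gap between the fed arrays, so no pass is read from them.

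Around the receptor, 1 of 11 measured signalling genes rose in fasted wild-type liver and 0 fell (1.87% and 3.15% of all genes), with a median of -0.01. The gene was Bcl6, a repressor that growth hormone lowers and that competes with STAT5 for its sites. It read 9.79 and 8.73 on the fasted Cnot3+/- arrays, 9.75 and 9.51 on the wild-type fasted arrays, and 7.89 and 7.59 on the fed arrays (fasting difference 1.89, SE 0.32, adjusted p = 0.021). Every fasted array lies above both fed arrays. The Bcl6 difference kept its sign but missed the threshold when any of the 4 arrays was left out (adjusted p from 0.0658 to 0.145). The phosphatase Ptpn6 differed by 0.46 (adjusted p = 0.168), the adaptor Grb10 by -0.57 (0.242) and the adaptor Sh2b1 by 0.20 (0.425), none of them past the test.

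In the rest of the IGF system, 0 of 14 measured genes passed in fasted wild-type liver (5.02% of all genes did), with a median of 0.12. The 4 with the smallest p were Igf2r, Igfbp3, Irs2 and Pappa. Igfbp3, the main partner of IGF1 in plasma, read 8.52 and 7.98 in fasted Cnot3+/-, 8.14 and 8.04 in fasted wild-type, and 7.68 and 7.52 in fed liver (fasting difference 0.49, adjusted p = 0.208). Igf2r, which clears IGF2, differed by -0.33 (adjusted p = 0.183), and Pappa, a protease of IGF binding proteins, by 0.26 (0.31). Irs2, an insulin and IGF1 receptor substrate, read 8.09 and 7.23 in fasted Cnot3+/-, 6.78 and 6.85 in fasted wild-type, and 6.40 and 5.88 in fed liver. Irs2 passed against fed liver in fasted Cnot3+/- (log2 difference 1.52, SE 0.29, adjusted p = 0.0235; 0.114 without fed replicate 2), as did the insulin receptor Insr (0.61, SE 0.14, adjusted p = 0.0488). Insr was named after its values were seen, and its call was lost with any of those 4 arrays left out. Neither gene passed in fasted wild-type liver or between the fasted genotypes.

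Liver genes whose sex bias growth hormone sets changed in both directions. Of 17 measured male-biased genes, 3 fell (Hsd3b5, Slco1a1 and Nudt7) and 1 rose (Elovl3) in fasted wild-type liver. The list median was -0.79, against 0.024 for all genes, of which 3.15% fell and 1.87% rose. Those 3 falls kept their sign with each of the 4 arrays left out. Hsd3b5 lay between -7.49 and -6.78, Slco1a1 between -2.45 and -1.78, and Nudt7 between -1.701 and -1.285. Each such fit keeps 1 array in a group, so no pass is read from it. The rise of Elovl3 missed the threshold in each of these fits. Of 12 measured female-biased genes, 3 rose and 0 fell, with a median of 0.38 and 7 positive differences. On average over the arrays, 5 of the 12 lay at or under the array median, so they were not taken as above background. Cyp2b9, 1 of these 5, went down, at 4.33 and 4.47 in fasted wild-type and 6.94 and 5.34 in fed liver. In fasted Cnot3+/- against fed liver, 3 of the 12 rose and 1 fell. Fmo2, a flavin monooxygenase, read 10.39 and 10.33 in fasted Cnot3+/-, 9.59 and 10.24 in fasted wild-type, and 8.02 and 8.22 in fed liver (fasting difference 1.79, SE 0.21, adjusted p = 0.00625). With single arrays of the 4 left out the Fmo2 difference lay between 1.47 and 2.12, and no pass is read from these fits. Trim24, a coregulator of nuclear receptors, rose by 0.94 (SE 0.19, adjusted p = 0.0371), and the thioesterase Acot3 by 2.72 (SE 0.60, adjusted p = 0.0485). Trim24 was lost with any of the 4 arrays left out, and Acot3 with 3 of them. Cyp17a1, a steroid hydroxylase, differed by 2.19 (adjusted p = 0.0503) in fasted wild-type against fed liver. Against the same fed arrays it rose by 2.88 (adjusted p = 0.0164) in fasted Cnot3+/- liver. Its arrays lay far apart, at 9.65 and 11.17 in fasted Cnot3+/-, 10.18 and 9.25 in fasted wild-type, and 7.38 and 7.67 in fed liver. The Cyp17a1 call was not checked with single arrays left out.

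Insulin-responsive lists gave the following counts in fasted wild-type liver. Of 10 insulin-induced genes, 7 fell and 0 rose (3.15% and 1.87% of all genes), with a median of -1.98. Of 14 insulin-repressed genes, 0 passed in limma, with a median of 0.38. Without fed replicate 1 the median was 0.59, and without fed replicate 2 it was 0.045. The 4 with the smallest p on the repressed list were Sesn3, Pik3r1, Trib1 and Irs2, with differences of -0.99, -1.06, 0.46 and 0.68.

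Markers of other liver cells were read beside these genes. Of 12 macrophage and Kupffer cell markers, 12 were higher in fasted Cnot3+/- than in fasted wild-type liver and 12 in fasted wild-type than in fed liver, with 0 called in either. In fasted Cnot3+/- against fed liver, where 4 of the 10 genes passed, 6 of the 12 rose (3.88% of all genes did), with a median of 0.80. How many passed depended on which single array was left out, while the median ran from 0.60 to 1.07. On Cnot3+/- replicate 1, 11 of the 12 were higher than on replicate 2, with a median gap of 0.56. Their mean level was 9.36 to 9.77 on the Cnot3+/- arrays, 8.98 to 9.17 on the wild-type fasted arrays and 8.55 to 8.72 on the fed arrays, and none lay under the array median. Of 10 stellate and fibroblast markers, 4 fell and 1 rose in fasted wild-type liver (3.15% and 1.87% of all genes), with a median of -0.54. Fewer passed with any 1 of the 4 arrays left out, while the median stayed between -0.55 and -0.47. The mean level of these markers was 7.48 to 7.77 on the Cnot3+/- arrays, 7.53 to 7.57 on the wild-type fasted arrays and 8.08 to 8.18 on the fed arrays. Igfbp3 is known to be made largely by non-parenchymal liver cells, and the part of these cells in its values, or in those of the 10 genes, was not tested.

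For 4 of the genes the most similar patterns were sought among 8872 named genes brighter than the median gene, by Pearson r over the 6 arrays. These arrays share groups, so the r values describe likeness only. Closest to Igf1 were Sema4a, F2r, Usp46, Selenof and Tcea3, with r between 0.990 and 0.997. Sema4a, a semaphorin, read 9.27 and 9.30 in fasted Cnot3+/-, 9.29 and 9.61 in fasted wild-type, and 9.93 and 10.28 in fed liver. Closest to Igfbp1 were Lrrc61, Thrap3, Dok3, Atp6v1c1 and Lpin2, with r between 0.986 and 0.994. Lpin2, a phosphatidate phosphatase, read 12.79 and 12.98 in fasted Cnot3+/-, 12.50 and 12.80 in fasted wild-type, and 12.55 and 11.03 in fed liver, so it shared with Igfbp1 a second fed array far below the rest. Closest to Socs2 were Trip6, Vps8, Fxyd5, Thoc6 and Dohh, with r between 0.970 and 0.983. Closest to Igfbp2 were Fcgrt, Slc22a5, Etfrf1, Tgoln1 and Ei24, with r between 0.996 and 0.998. Fcgrt, a subunit of the receptor that recycles IgG and albumin, read 11.38 and 11.40 in fasted Cnot3+/-, 11.39 and 11.45 in fasted wild-type, and 10.86 and 10.88 in fed liver.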

How the data were processed

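Per the labels' protocols, liver RNA was extracted with ISOGEN and RNeasy, then labelled as biotinylated cRNA by the standard Affymetrix protocol. The authors deposited log2 levels, obtained by RMA according to what is recorded per the submitters' processing notes (version not given in the sources used here). They were used as deposited. Of 45101 probe sets, 64 were controls, 34945 named 1 gene, 932 several and 9160 none. Each of the 18193 genes took its brightest single-gene probe set, and 18032 were matched to the reference by gene ID.

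The 6 arrays were fitted together with 3 group means in limma 3.58.1 (R 4.3.3; residual df 3, prior df 4.24), with Benjamini-Hochberg adjustment over all genes. SE is the moderated standard error. Fits were tested on simulated data. The 10 genes, the gene lists and the rule for naming genes were chosen with earlier results of these data known. Named list genes are the 4 with the smallest fasting p among those above the array median, and for 4 genes the 5 others with the highest Pearson r were named. Same-numbered replicates share only a number in the labels, so no block was used. Signal over background was not given in the sources used here. Precision is therefore given by the SE alone, from the spread between arrays and limma's prior. Figures used matplotlib 3.10.9.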

Additional observations from a re-analysis of the deposited data

How the results depend on the processing

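The settings tried were a variance trend, a robust prior, the mean over probe sets, probe sets without the suffixes _x_at and _s_at, every probe set as a feature, cyclic loess, quantile normalization, centring on brighter genes, brighter genes only, and the 4 arrays of the groups compared. Of 340 values of single genes under these settings and the replicate blocks, 332 kept their direction and side of the threshold, 1 call was lost (Ghr on fasting, given above) and 7 signs changed. The mean over probe sets gave 0.047 for Stat5b and 0.069 for Igfbp4 on fasting, and -0.10 for Stat5b and -0.092 for Igfbp4 between the fasted genotypes. Igfbp4 gave -0.051 between genotypes without _x_at and _s_at probe sets, and 0.018 on fasting and -0.068 between genotypes after centring on brighter genes. The cause was not tested, and none of these differences passed the test. Against fed liver, fasted Cnot3+/- liver had 1375 called genes, and 857 with its own 4 arrays alone, while the same setting gave 1033 on fasting, against 913. The cause was not tested.

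With single arrays left out, a lone array was taken to vary like the other groups. The number of the 10 genes called ran from 0 to 4 on fasting, where all called genes numbered 913 and ran from 137 to 1033. In fasted Cnot3+/- against fed liver, all called genes ran from 597 to 929. Between the fasted genotypes they ran from 0 to 2. Signs changed for Stat5a (-0.24 to 0.32), Socs2 (-1.31 to 0.56) and Igfbp4 (-0.043 to 0.015) on fasting. They changed between genotypes for Ghr (-0.25 to 0.16), Stat5b (-0.028 to 0.29), Socs2 (-0.77 to 1.10), Cish (-0.10 to 0.33) and Igfbp4 (-0.029 to 0.029). Against fed liver in fasted Cnot3+/- they changed for Stat5a (-0.32 to 0.24), Stat5b (-0.22 to 0.10) and Socs2 (-0.75 to 0.33).

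The replicate numbers share no stated source. With them as a replicate block, the same 3, 0 and 4 of the 10 genes were called in the fasting, genotype and fasted Cnot3+/- against fed comparisons, and 1206, 0 and 1708 of all genes. A block among the 4 fasted arrays, added after the data were seen, called 0 genes between the genotypes and narrowed the SE of Socs2 to 0.26, against 0.60.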
